A study of Mus musculus with 384 samples.

Results

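Gzmk-positive CD8 T cells of wild-type B16F10 melanomas were compared with Gzmk-negative CD8 T cells from the same plate. The cells came from the single-cell wells of the wild-type CD8 plate that had at least 1000 genes at 1 FPKM or more, which 72 of 94 wells passed. FPKM stands for fragments scaled to transcript length and sequencing depth. Summed FPKM still differed between the cells, as given below with their depth. A cell was called Gzmk-positive when its Gzmk value was 1 FPKM or more, and this split the 72 cells into 36 Gzmk-positive and 36 Gzmk-negative cells. The same limit kept 77 of 94 knockout CD8 cells and, of the CD4 cells, 78 of 94 knockout and 74 of 94 wild-type cells of the series. The classes were chosen by the measured Gzmk value, so every Gzmk value is given as a description with no test.

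B16F10 is a melanoma cell line that grows as a tumour in mice of the C57BL/6 strain, the strain of all mice here. T cells that had entered the tumours were isolated, placed singly in plate wells and profiled by Smart-seq2, which reads full-length cDNA of each cell and counts no unique molecules. The series holds 4 plates of 96 wells, a CD8 and a CD4 plate of Il27ra knockout mice and a CD8 and a CD4 plate of wild-type mice. Its stated interest is the genes that IL-27, a cytokine, induces in tumour T cells. The cell type of each plate was taken from the sample titles, since the treatment label names CD8+ cells alone. The titles were read as 1 source of cells per genotype, which is an assumption. The labels name no agent given to either genotype, and they give neither the age and sex of the mice nor the part of Il27ra that is deleted. Cells of 1 plate share their animal source and their preparation and do not stand for several animals. Differences are therefore descriptions of these cells, with no p-value and no standard error.

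Granzyme K, the product of Gzmk, is a serine protease that cytotoxic lymphocytes store in granules and that cleaves after basic residues. Its relative granzyme B cleaves after aspartate and is the main granzyme that starts cell death in target cells, which it enters with the help of perforin. T cells that have met antigen over a long time in a tumour carry co-inhibitory receptors such as PD-1, whereas naive and stem-like T cells express the transcription factor TCF-1 and the IL-7 receptor.

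In the GENCODE M21 annotation of GRCm38, Gzmk lies on the minus strand of chromosome 13 (113171608 to 113225908) and Gzmb on the minus strand of chromosome 14 (56258838 to 56262260). The promoters of both are shown because Gzmb had the highest correlation with Gzmk over the 72 cells of both classes (given with the other correlations), one that rests mainly on whether Gzmk was detected. Each sequence holds the 250 bases before the RefSeq transcription start on GRCm38.p6, read 5′ to 3′ along the gene, at chr13:113180966-113181215 (minus strand) for Gzmk and chr14:56262335-56262584 (minus strand) for Gzmb. The Gzmk window lies within the longer GENCODE record of the gene.
Gzmk: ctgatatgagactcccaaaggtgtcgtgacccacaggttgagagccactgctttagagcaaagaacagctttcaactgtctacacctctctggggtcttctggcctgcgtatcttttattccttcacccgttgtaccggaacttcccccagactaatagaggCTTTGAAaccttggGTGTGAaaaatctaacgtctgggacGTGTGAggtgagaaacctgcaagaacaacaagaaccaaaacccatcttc
Gzmb: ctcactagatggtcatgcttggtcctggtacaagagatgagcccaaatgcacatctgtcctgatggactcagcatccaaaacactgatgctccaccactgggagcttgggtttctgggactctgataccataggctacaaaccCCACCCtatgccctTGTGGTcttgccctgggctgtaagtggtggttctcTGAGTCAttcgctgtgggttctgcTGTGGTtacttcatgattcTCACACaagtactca
Capitals mark matches to 5 short motifs searched on both strands. These were TGTGGT for RUNX factors, TCACAC for T-box factors, TGANTCA for AP-1, CTTTGAA for TCF/LEF and CCACCC for KLF factors. The Gzmk window held 2 T-box matches, both on the other strand (GTGTGA), and 1 TCF/LEF match. The Gzmb window held 2 RUNX matches and 1 match each to the T-box, AP-1 and KLF motifs. Among the same 250-base windows of 27025 mouse promoters, the T-box letters occurred in 12.2%, the TCF/LEF letters in 4.64%, the RUNX letters in 14.2%, the AP-1 letters in 6.87% and the KLF letters in 27.7%. None of the matches overlapped another, and a match describes letters, not binding.

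Gzmk itself was present at high level or listed at 0. Over the 36 Gzmk-positive cells its value ran from 58.2 through a median of 837 to 2432 FPKM, and all 36 Gzmk-negative cells were listed at 0 FPKM. The positive cell nearest the limit had 58.2 FPKM and the next 164.2 FPKM, so a limit of 10 FPKM gave the same classes. The population well of the plate, a library of pooled cells, had 1043 FPKM, and its no-cell well was listed at 0. A value of 0 in a single cell does not show that the gene is silent there, since genes used by every cell were also missing at times. Gapdh, a glycolytic enzyme often used as a loading standard, was at 1 FPKM or more in 36 of 36 Gzmk-positive and 34 of 36 Gzmk-negative cells.

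Depth moved with the classes. Gzmk-positive cells had a median of 2935 detected genes (1102 to 5746), against 2140.5 in Gzmk-negative cells (1004 to 5776). Estimated reads per cell had a median of 812097 in Gzmk-positive and 550069 in Gzmk-negative cells, and summed FPKM 1067660 in Gzmk-positive and 790730 in Gzmk-negative cells. The lowest sum, 49195.5 FPKM, was that of a Gzmk-negative cell that is in neither of the paired sets described next. Of the 24 cells with the fewest detected genes, 4 were Gzmk-positive (16.7%, exact 95% interval 4.74 to 37.4). In the 24 cells of middle and the 24 of highest rank, 16 each were Gzmk-positive (66.7%, 44.7 to 84.4). These and all later intervals are Clopper-Pearson intervals that cover counting error only, and the reads are PCR copies without molecular identifiers. Where a gene was detected in 0 cells, the limit given is instead the share that 3 cells of the total would make, and it limits detection, not expression. Within the Gzmk-positive cells the Gzmk level had a Spearman correlation of -0.03 with detected genes (36 cells). Shallower reading of a cell and less RNA in it cannot be told apart here. Each comparison was therefore also made in 20 Gzmk-positive and 20 Gzmk-negative cells paired on detected genes (medians 2537.5 in Gzmk-positive and 2479 in Gzmk-negative cells), and in 24 and 24 cells paired on estimated reads (medians 685272 in Gzmk-positive and 658322 in Gzmk-negative cells). Each set was matched on 1 measure alone. The cells paired on genes had median reads of 770753 in Gzmk-positive and 658322 in Gzmk-negative cells, and those paired on reads had median detected genes of 2590 in Gzmk-positive and 2314.5 in Gzmk-negative cells.

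**Figure D1:**
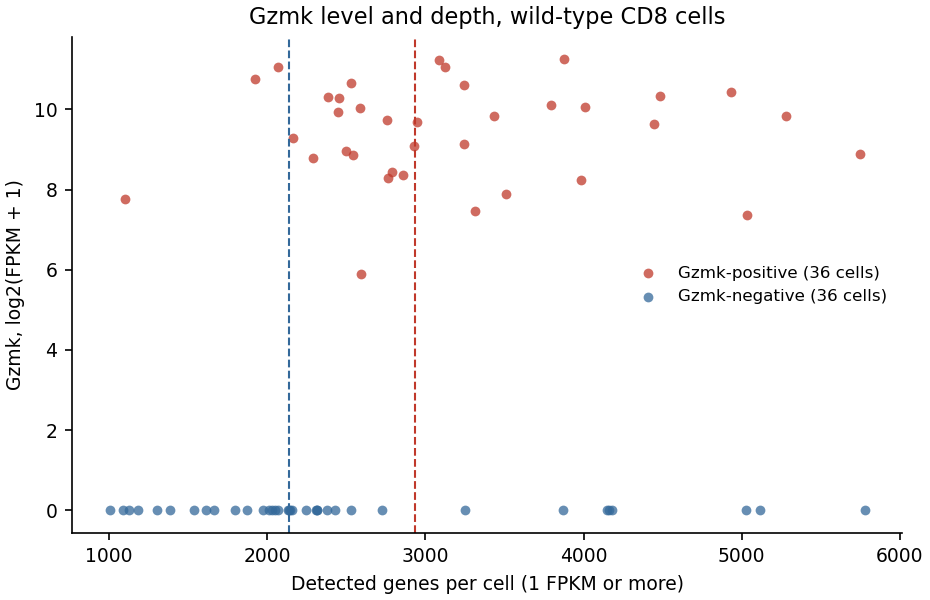
Gzmk as log2(FPKM + 1) on the vertical axis against detected genes on the horizontal axis, 1 point per wild-type CD8 cell, with dashed lines at the class medians of 2935 (Gzmk-positive) and 2140.5 (Gzmk-negative) detected genes. The Gzmk-positive cells form a band between 58.2 and 2432 FPKM, the Gzmk-negative cells lie at 0, and both classes span shallow and deep cells.

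The cells matched their CD8 label. Cd8a, 1 chain of the CD8 coreceptor, was detected in 35 of 36 Gzmk-positive cells and 26 of 36 Gzmk-negative cells, and Cd8a or Cd8b1 in 35 Gzmk-positive and 33 Gzmk-negative cells. At least 1 of the CD3 genes Cd3d, Cd3e and Cd3g was detected in 36 Gzmk-positive and 34 Gzmk-negative cells, and Cd4 and Foxp3 were below 1 FPKM in every cell of both classes. Of the other genes on the 4-gene list of CD4 and regulatory T cell markers, Cd40lg was detected in 0 Gzmk-positive and 4 Gzmk-negative cells and Zbtb7b in 3 of each, and the list summed to at most 21.2 FPKM in a Gzmk-positive and 2136 FPKM in a Gzmk-negative cell. RNA of other cell types was present in both. Leaving aside Tyr, 15 of 36 Gzmk-positive cells (41.7%, 25.5 to 59.2) and 21 of 36 Gzmk-negative cells (58.3%, 40.8 to 74.5) had a melanoma or myeloid marker at 1 FPKM or more. In the cells paired on detected genes these were 7 of 20 Gzmk-positive and 14 of 20 Gzmk-negative cells. The summed level of the 12 myeloid markers had a median of 0 in both classes, with maxima of 11200 FPKM in a Gzmk-positive and 3511 FPKM in a Gzmk-negative cell. The 7 melanoma markers summed to between 2.92 and 14140 FPKM in Gzmk-positive and between 2.28 and 3386 FPKM in Gzmk-negative cells. C1qa and C1qc of macrophages, Ms4a1 and Cd79a of B cells, Ncr1 of NK cells, and Col3a1 and Cdh5 of stroma were listed at 0 in all 72 cells, and Col1a1 was at most 0.68 FPKM in Gzmk-positive cells and 0 in Gzmk-negative cells. Other members of these lists were detected. At least 1 of the 6 B cell markers was found in 6 Gzmk-positive and 10 Gzmk-negative cells, with a highest sum of 12.3 FPKM in Gzmk-positive and 835.6 FPKM in Gzmk-negative cells. For the 5 NK cell markers, among them Eomes, which CD8 T cells also express, these were 17 Gzmk-positive and 13 Gzmk-negative cells, with highest sums of 309.8 FPKM in Gzmk-positive and 578 FPKM in Gzmk-negative cells. For the 6 stromal markers they were 10 Gzmk-positive and 6 Gzmk-negative cells, with highest sums of 730.9 FPKM in Gzmk-positive and 106.7 FPKM in Gzmk-negative cells. The part of B, NK, stromal or CD4 cell RNA in the results was not tested. Without the marked cells, 21 Gzmk-positive and 15 Gzmk-negative cells remained. In these, 11 of the 12 genes named below as lower and all 12 named as higher were past 2 log2 units in the same direction. The named genes were chosen in all 72 cells, the remaining ones included, so this count was largely fixed by the choice.

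Across genes, the contrast was lopsided in all cells and much less so in the paired sets. The measure was the difference of mean log2(FPKM + 1), Gzmk-positive minus Gzmk-negative, for genes at 1 FPKM or more in at least 10% of the cells of either class, with Gzmk left out. On this scale a difference also carries the share of cells with detection and is not a fold change of mean expression. In all 72 cells 809 of 8618 genes (9.39%) were higher in Gzmk-positive cells by 2 log2 units or more and 15 (0.174%) lower, around a median of 0.48 over all genes. In the cells paired on detected genes 2.21% of 9667 genes were higher and 0.879% (85 genes) lower, with a median of 0.01. In the cells paired on reads 2.45% of 8604 genes were higher and 1.06% (91 genes) lower, with a median of 0.07. Among the 8232 genes measured in all 3 sets, 1.28% were higher by 2 log2 units in every one and 0.146% (12 genes) lower. These shares are the background for the counts that follow. Each gene below is given with its difference in all cells, then in cells paired on detected genes, then in cells paired on reads.

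**Figure D2:**
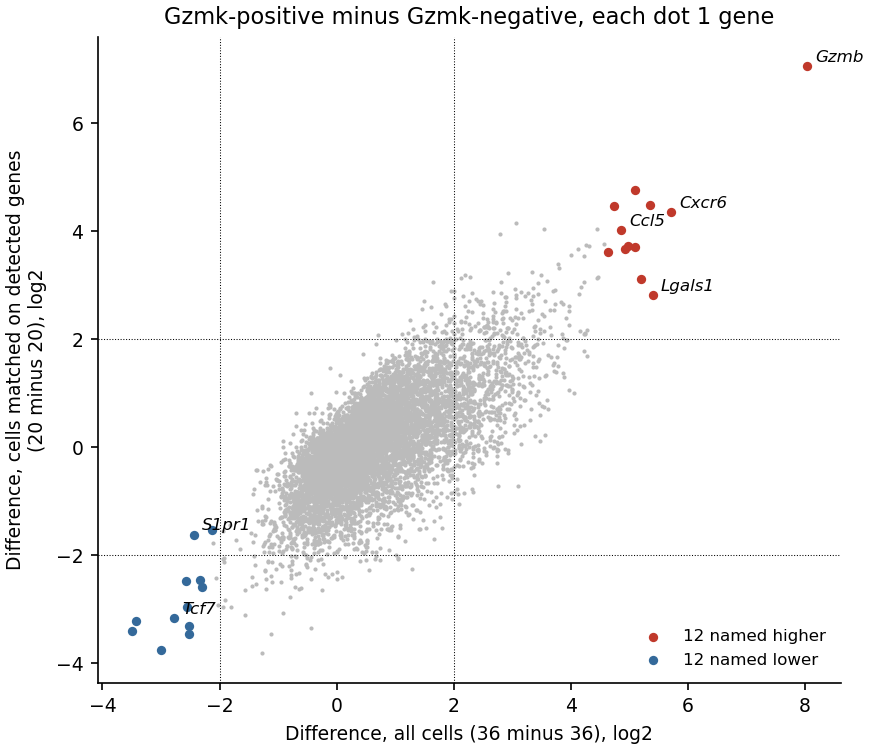
Each dot is 1 gene, with its difference (log2, Gzmk-positive minus Gzmk-negative) over all 36 and 36 cells on the horizontal axis and over the 20 and 20 cells paired on detected genes on the vertical axis, and dotted lines at 2 log2 units. The cloud is shifted to the right (median 0.48) but centred on the vertical axis (median 0.01), and the 12 named higher and 12 named lower genes are coloured. These were chosen for the same direction in all cells and in both paired sets, so their side on either axis was fixed by the choice.

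The widest difference of all genes was that of another granzyme. Gzmb ran from 0 through a median of 1771 to 8446 FPKM in Gzmk-positive cells, against a median of 0 and a highest value of 3142 FPKM in Gzmk-negative cells. Detection reached 33 of 36 Gzmk-positive cells (91.7%, 77.5 to 98.2) and 7 of 36 Gzmk-negative cells (19.4%, 8.19 to 36.02). The classes overlapped through those 7 cells and the 3 positive cells without it, and the difference was 8.03, 7.06 and 8.06 log2 units. Read the other way, 33 of the 40 cells with Gzmb were Gzmk-positive (82.5%, 67.2 to 92.7), as were 3 of the 32 cells without it (9.38%, 1.98 to 25.0). In the pairs matched on detected genes the Gzmk-positive cell had more Gzmb in 15 of 20 pairs and less in 3.

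Other genes of the killing machinery leaned the same way but less evenly. Of 20 granule and cytotoxicity genes, Gzmb included, 14 were measured and 9 of them were higher by 2 log2 units in all cells, with 5 of 15 in the cells paired on genes, 3 of 14 in those paired on reads and 0 lower in any. Their median was 2.51, 1.40 and 1.17, against 0.48, 0.01 and 0.07 over all genes. Prf1, which encodes perforin, was detected in 21 Gzmk-positive and 8 Gzmk-negative cells and differed by 3.15, 2.88 and 2.73. Fasl, the death receptor ligand, was detected in 23 Gzmk-positive and 9 Gzmk-negative cells and differed by 3.34, 2.66 and 3.18. Nkg7, a granule membrane protein, was detected in 35 Gzmk-positive and 29 Gzmk-negative cells and differed by 3.83, 2.70 and 1.98, so it was under 2 in the cells paired on reads. Gzma was rare in both classes, at 3 Gzmk-positive and 2 Gzmk-negative cells. Gzmb, Prf1 and Fasl were thus past 2 log2 units in all 3 sets, and Nkg7 in the first and the second.

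The inflammatory chemokine genes Ccl5 and Ccl4 and the receptor genes Cxcr6 and Ccr2 were higher in Gzmk-positive cells by more than 2 log2 units in all 3 sets, other chemokine and cytokine genes were not, and the lymph node receptor Ccr7 was not detected in them. Ccl5, a chemokine of memory and effector T cells that marks these cells, ran from 0 through a median of 11860 to 43850 FPKM in Gzmk-positive cells and from 0 through 2136 to 27650 FPKM in Gzmk-negative cells. Both classes therefore expressed it, in 35 of 36 Gzmk-positive and 25 of 36 Gzmk-negative cells, and the difference was 4.85, 4.03 and 4.05. Cxcr6, a receptor of T cells that stay in tissue, had a median of 1648 FPKM (0 to 4461) in Gzmk-positive cells and of 0 (0 to 4729) in Gzmk-negative cells. With 31 Gzmk-positive and 13 Gzmk-negative cells detecting it, Cxcr6 differed by 5.71, 4.35 and 4.09. The highest Cxcr6 value of all was in a Gzmk-negative cell, so the classes overlapped over the whole range.

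Ccl4, another inflammatory chemokine gene, was detected in 23 Gzmk-positive and 9 Gzmk-negative cells and differed by 3.72, 2.65 and 3.59. Ccr2, which responds to monocyte chemoattractants, was detected in 20 Gzmk-positive and 8 Gzmk-negative cells and differed by 2.81, 2.86 and 3.19. Ccr7 was detected in 0 of 36 Gzmk-positive cells, which allows a share of up to 8.33%, and in 8 of 36 Gzmk-negative cells (22.2%, 10.1 to 39.2). Its highest value in a Gzmk-negative cell was 3252 FPKM. Of 10 measured chemokine and lipid receptor genes 3 were higher by 2 log2 units and 1 was lower in all cells, with 3 higher and 1 lower of 11 in cells paired on genes and 3 higher and 2 lower of 10 in cells paired on reads. The list median was 1.15, 0.85 and 0.08. Cxcr3, a receptor of interferon-induced chemokines, differed by 1.63, 0.78 and -0.14, and Ccr8 by -0.17, -0.72 and -0.91. Of 10 measured chemokine and cytokine genes 4 were higher and 0 lower in all cells, with 2 higher and 1 lower of 12 in cells paired on genes and 3 higher and 1 lower of 10 in cells paired on reads. The median of that list was 0.51, 0.11 and 0.48, close to the 0.48, 0.01 and 0.07 over all genes in the first set and the second. Xcl1, a chemokine for cross-presenting dendritic cells, was detected in 1 Gzmk-positive and 6 Gzmk-negative cells and differed by -1.09, -1.54 and -0.88. Ltb, which encodes lymphotoxin beta, was lower, and more so in the paired sets. Its RNA was detected in 23 Gzmk-positive and 27 Gzmk-negative cells and differed by -1.27 in all cells, -3.82 in cells paired on genes and -4.08 in cells paired on reads.

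Among lists with at least 4 measured genes, co-inhibitory receptors had the highest median, and 6 of its 12 measured members were past 2 log2 units in each of the 3 sets. These were the receptor genes Pdcd1, Lag3, Tigit, Havcr2 and Ctla4, and Entpd1, which encodes a surface enzyme that the list includes. The list median was 3.0, 1.85 and 2.45, against 0.48, 0.01 and 0.07 over all genes. Pdcd1, which encodes PD-1, had a median of 1103 FPKM (0 to 4241) in Gzmk-positive cells and of 0 (0 to 3292) in Gzmk-negative cells. Pdcd1 was detected in 31 Gzmk-positive and 14 Gzmk-negative cells and differed by 4.98, 3.73 and 3.87. Lag3, a receptor for MHC class II, had a median of 667 FPKM (0 to 5170) in Gzmk-positive and of 0 (0 to 1317) in Gzmk-negative cells, was detected in 31 Gzmk-positive and 15 Gzmk-negative cells and differed by 5.20, 3.12 and 5.18. In both genes a majority of Gzmk-negative cells were below 1 FPKM, while the remainder overlapped the Gzmk-positive range.

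Tigit differed more in level than in detection. Its median was 813 FPKM (0 to 3524) in Gzmk-positive cells and 3.04 FPKM (0 to 2253) in Gzmk-negative cells, yet it was at 1 FPKM or more in 33 Gzmk-positive and 25 Gzmk-negative cells. The difference was 5.35, 4.48 and 4.98, and the Gzmk-positive cell was the higher in 17 of the 20 pairs. Havcr2, which encodes TIM-3, was detected in 25 Gzmk-positive and 8 Gzmk-negative cells and differed by 4.24, 2.11 and 3.67. Ctla4, a competitor of CD28, was detected in 28 Gzmk-positive and 13 Gzmk-negative cells and differed by 4.14, 2.84 and 3.37. A pair of other members lay closer to the median of all genes. Cd244 differed by 0.34, 0.08 and -0.69 and Cd160 by -0.03, -0.54 and -0.62. Btla, an inhibitory receptor of resting lymphocytes, was detected in 0 Gzmk-positive and 6 Gzmk-negative cells.

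A pair of surface enzymes stood among the 12 widest differences. Entpd1, which encodes the ectonucleotidase CD39, had a median of 125.7 FPKM (0 to 618) in Gzmk-positive and of 0 (0 to 435) in Gzmk-negative cells. Detection reached 30 of 36 Gzmk-positive (83.3%, 67.2 to 93.6) and 6 of 36 Gzmk-negative cells (16.7%, 6.37 to 32.8), and Entpd1 differed by 4.92, 3.68 and 5.12. Cd38, an enzyme that consumes NAD, had a median of 131.2 FPKM (0 to 719) in Gzmk-positive and of 0 (0 to 473) in Gzmk-negative cells. Cd38 was detected in 29 Gzmk-positive and 9 Gzmk-negative cells and differed by 4.73, 4.47 and 4.05, with the Gzmk-positive cell higher in 17 of 20 pairs. Both enzymes thus marked most Gzmk-positive cells and a minority of Gzmk-negative ones.

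**Figure D3:**
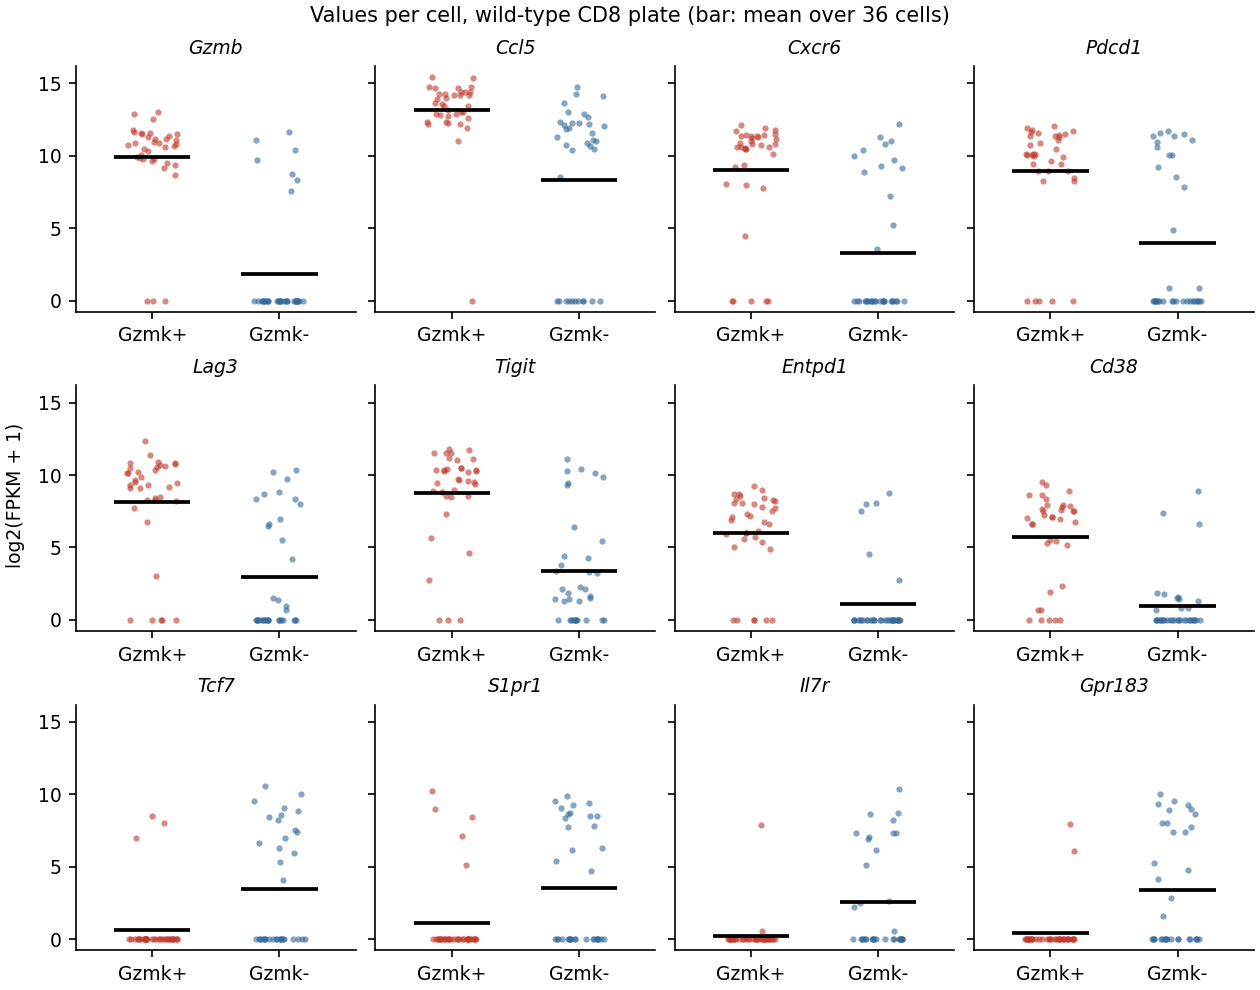
Values of 12 genes as log2(FPKM + 1) on the vertical axis, 1 point per cell, with Gzmk-positive cells at the left and Gzmk-negative cells at the right of each panel and a bar at the mean over 36 cells. Gzmb to Cd38 have most Gzmk-positive cells high and most or many Gzmk-negative cells near 0, while Tcf7, S1pr1, Il7r and Gpr183 have 3, 5, 1 and 2 Gzmk-positive cells at 1 FPKM or more and 16, 16, 14 and 17 Gzmk-negative cells.

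Other higher genes covered several functions. Lgals1, which encodes the carbohydrate-binding galectin-1, had a median of 2106 FPKM (0 to 4213) in Gzmk-positive and 67.5 FPKM (0 to 5459) in Gzmk-negative cells and differed by 5.40, 2.81 and 3.63. S100a4, a calcium-binding protein gene of effector and memory T cells, was detected in 28 Gzmk-positive and 9 Gzmk-negative cells and differed by 4.46, 3.16 and 3.70. Of 10 measured annexin, S100 and galectin genes 8 were higher by 2 log2 units in all cells, 3 in cells paired on genes and 4 in cells paired on reads, with list medians of 2.87, 1.68 and 1.84. Ifi27l2a, an interferon-inducible gene, was detected in 28 Gzmk-positive and 10 Gzmk-negative cells and differed by 5.09, 4.76 and 3.99. It is not on the interferon-stimulated list, whose 15 genes measured in all cells had medians of 0.80, 0.41 and 0.41, with 1 higher by 2 log2 units in all cells and 0 in either paired set. Etfb, a subunit of the mitochondrial electron transfer flavoprotein, was detected in 28 Gzmk-positive and 9 Gzmk-negative cells and differed by 4.63, 3.61 and 3.64.

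Of the transcription factors on the lists, Id2 was the 1 among the 12 widest. Id2, an inhibitor of E proteins that favours effector cells, had a median of 578 FPKM (0 to 3942) in Gzmk-positive and 0.685 FPKM (0 to 3420) in Gzmk-negative cells. Detected in 35 Gzmk-positive and 18 Gzmk-negative cells, it differed by 5.09, 3.71 and 3.81. Tox, linked to persistent antigen contact, was detected in 26 Gzmk-positive and 11 Gzmk-negative cells and differed by 3.43 in all cells, but by 1.04 in cells paired on genes, where the pairs were divided at 8 to 8, and by 2.69 in cells paired on reads. Prdm1, which encodes BLIMP-1, was detected in 17 Gzmk-positive and 5 Gzmk-negative cells and differed by 1.81, 1.95 and 1.43. Eomes, a T-box factor, was detected in 16 Gzmk-positive and 7 Gzmk-negative cells and differed by 1.86, 1.42 and 2.04. Tbx21, which encodes the T-box factor T-bet, was detected in 19 Gzmk-positive and 14 Gzmk-negative cells and differed by 1.03, -0.15 and -1.42, and Batf by 2.35, -0.51 and 0.71. Of the factors named here, Id2, Tox, Prdm1 and Eomes were therefore higher by more than 1 log2 unit in every set, whereas Tbx21 and Batf had different signs in different sets. The list of effector transcription factors had medians of 1.81, 0.88 and 1.25, against 0.48, 0.01 and 0.07 over all genes. Higher by 2 log2 units were 4 of 13 measured members, 2 of 14 and 3 of 13. The 8 measured dysfunction-linked transcription factors had medians of 0.86, 0.34 and 0.57, with 2, 0 and 1 higher by 2 log2 units.

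Genes of naive and stem-like T cells lay on the other side, and several were nearly absent from Gzmk-positive cells. Tcf7, which encodes TCF-1 (chromosome 11, 52252371 to 52283014), was detected in 3 Gzmk-positive cells (8.33%, 1.75 to 22.5) and 16 Gzmk-negative cells (44.4%, 27.9 to 61.9). Its highest value was 362.8 FPKM in Gzmk-positive and 1499 FPKM in Gzmk-negative cells, and it differed by -2.78, -3.17 and -3.99. In the pairs matched on detected genes, Tcf7 was higher in the Gzmk-negative cell in 11 of 20 pairs and in the Gzmk-positive cell in 0.

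Il7r, the IL-7 receptor chain, was detected in 1 Gzmk-positive and 14 Gzmk-negative cells and differed by -2.29, -2.58 and -2.79. S1pr1, which guides T cells out of tissue, was detected in 5 Gzmk-positive and 16 Gzmk-negative cells and differed by -2.44, -1.62 and -3.36. Its highest value was in a Gzmk-positive cell, at 1218 FPKM, against 950 FPKM in a Gzmk-negative cell. The list of naive and stem-like genes had 15 measured members, of which 4 were lower by 2 log2 units and 0 higher in all cells. Its median was -0.72, -1.28 and -1.08, against 0.48, 0.01 and 0.07 over all genes. Lef1, a partner of TCF-1, was an exception, with 19 Gzmk-positive and 12 Gzmk-negative cells and differences of 0.84, 0.65 and 0.20. Slamf6, a surface marker of stem-like cells, was detected in 4 Gzmk-positive and 6 Gzmk-negative cells, too few to order the classes. Without the cells that had a melanoma or myeloid marker, Tcf7 differed by -3.11 and Il7r by -3.06 in all remaining cells, and the list median was -1.04.

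Further lower genes were not on that list. Gpr183, an oxysterol receptor that positions lymphocytes, was detected in 2 Gzmk-positive cells (5.56%, 0.68 to 18.7) and 17 Gzmk-negative cells (47.2%, 30.4 to 64.5) and differed by -2.99, -3.75 and -3.92. Tnfrsf26, a member of the TNF receptor family, was detected in 1 Gzmk-positive and 18 Gzmk-negative cells and differed by -3.43, -3.22 and -4.55. Zfp36l1, an RNA-binding protein that promotes mRNA decay, was detected in 12 Gzmk-positive and 21 Gzmk-negative cells and differed by -2.52, -3.45 and -3.39. Ssh2, Klhl6 and Pdlim1 were detected in 6, 7 and 5 Gzmk-positive cells and in 20, 17 and 16 Gzmk-negative cells, and the predicted gene Gm12505 in 13 Gzmk-positive and 23 Gzmk-negative cells. Nfkbia, an inhibitor of NF-kappaB that is itself induced by it, differed by -0.44 in all cells and by -3.34 and -3.35 in the paired sets. The immediate early list it belongs to had medians of 0.05, -0.58 and -0.43, with 2 of 13 members lower by 2 log2 units in cells paired on genes and 3 of 13 in cells paired on reads.

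Killer lectin-like receptors were divided between the classes. Klrg1, a receptor of differentiated effector cells, was detected in 14 of 36 Gzmk-positive cells (38.9%, 23.1 to 56.5) and in 0 of 36 Gzmk-negative cells, which allows up to 8.33%, and differed by 2.80, 3.94 and 3.06. Klra7, an inhibitory receptor of the Ly49 family, was on the other side, with 0 Gzmk-positive and 8 Gzmk-negative cells (22.2%, 10.1 to 39.2), a highest value of 7472 FPKM and differences of -2.33, -2.46 and -3.05. Ly49 genes are near-identical copies and the division of reads among them is an estimate, so the Klra7 value may belong in part to its relatives. Without the cells that had a melanoma or myeloid marker, a rule that removes cells with Fcer1g, Klra7 differed by -1.47. Fcer1g, the common Fc receptor gamma chain of myeloid, NK and innate-like T cells, was detected in 2 Gzmk-positive and 9 Gzmk-negative cells, and 4 of the 8 cells with Klra7 also had Fcer1g. Klrb1c, an NK receptor gene, was detected in 1 Gzmk-positive and 5 Gzmk-negative cells, and Ncr1 was listed at 0 throughout. Over the 8 measured members of the list 2 were higher and 1 lower in all cells, and the median was 0.12, -0.36 and -0.85.

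Genes of the T cell receptor apparatus were higher in Gzmk-positive cells, fewer of them in the paired sets. Of 16 measured genes 12 were higher by 2 log2 units in all cells, 5 in cells paired on genes and 3 in cells paired on reads, with medians of 2.36, 1.22 and 1.053. Lower by 2 log2 units was 1 gene, in cells paired on reads alone, and this was Ptpn6, a phosphatase that restrains receptor signalling (-0.61, -1.14 and -2.33). Lat, an adaptor of the receptor, was detected in 36 Gzmk-positive and 22 Gzmk-negative cells and differed by 4.22, 3.07 and 2.83. Cd8b1, the beta chain of CD8, differed by 3.22, 2.81 and 2.84, and Cd6 by 3.03, 2.19 and 2.08. Cd3d differed by 1.61, 0.66 and -0.52, so the signal was not shared by all parts of the complex. Il10ra, the IL-10 receptor chain, was detected in 29 Gzmk-positive and 10 Gzmk-negative cells and differed by 3.55, 2.16 and 2.78. Il27ra, the IL-27 receptor chain that was targeted in the knockout mice, was detected in 23 Gzmk-positive and 14 Gzmk-negative wild-type cells and differed by 2.39, 1.63 and 2.31. The list of cytokine receptors did not share this in the paired sets. Its 14 measured genes had medians of 1.125, -0.0062 and -0.20, against 0.48, 0.01 and 0.07 over all genes. Higher by 2 log2 units were 3, 2 and 2 of them, and 1 was lower in cells paired on reads.

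Most oxidative phosphorylation, glycolysis and antigen-presentation genes and a minority of proliferation genes were higher in all cells by 2 log2 units, and few were in the paired sets. The 17 oxidative phosphorylation genes had a median of 2.66 in all cells with 13 past 2 log2 units, but 0.50 and 0.83 in the paired sets with 1 and 3. The 16 glycolysis genes had medians of 2.05, 0.76 and 0.68 with 9, 0 and 2 past it, and the 12 MHC class I and proteasome genes 2.13, -0.02 and 0.36 with 8, 2 and 1. Of 25 proliferation genes 5 were higher in all cells, 0 higher and 1 lower in cells paired on genes and 1 higher in cells paired on reads, with medians of 1.29, -0.11 and 0.36. Mki67, a marker of cycling cells, was detected in 14 Gzmk-positive cells (38.9%, 23.1 to 56.5) and 7 Gzmk-negative cells (19.4%, 8.19 to 36.02), with overlapping intervals. The 10 housekeeping genes had medians of 1.94, 0.09 and -0.20. In all cells these medians lay between 1.29 and 2.66, on either side of the 1.94 of the housekeeping genes. In the paired sets they lay between -0.11 and 0.83, against 1.17 to 2.45 for the co-inhibitory, granule and galectin lists.

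**Figure D4:**
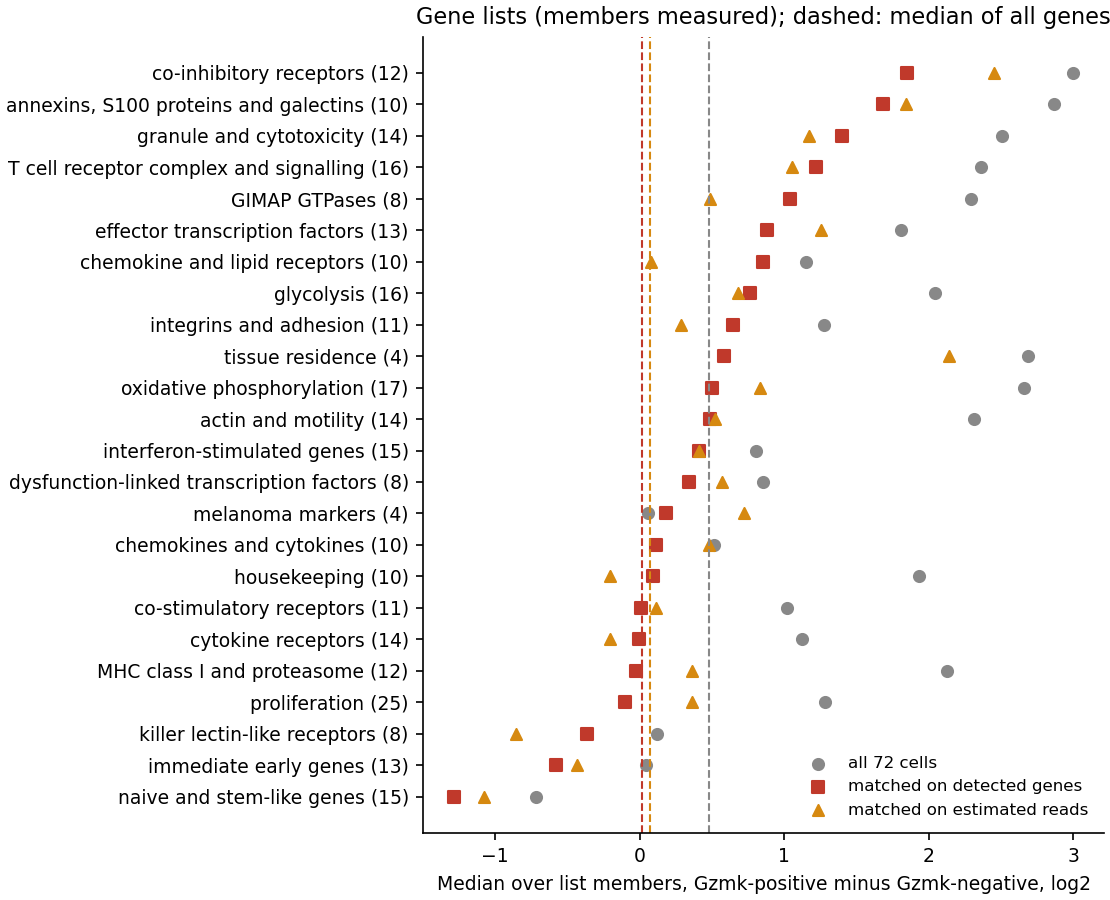
Median difference over the measured members of each gene list (log2, Gzmk-positive minus Gzmk-negative) in all 72 cells, in cells paired on detected genes and in cells paired on estimated reads, for lists with at least 4 measured members, with dashed lines at the median of all genes in each set. Co-inhibitory receptors lie farthest right in the sets of all cells and of pairs on reads and on genes (3.0, 2.45 and 1.85), naive and stem-like genes farthest left, and housekeeping genes lie at 1.94 in all cells but at 0.09 and -0.20 in the paired sets.

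Combinations of genes were also counted within single cells. Detection of 3 or 4 of the genes Pdcd1, Lag3, Tigit and Havcr2 was found in 31 of 36 Gzmk-positive cells (86.1%, 70.5 to 95.3) and 10 of 36 Gzmk-negative cells (27.8%, 14.2 to 45.2). In the cells paired on detected genes these were 16 of 20 Gzmk-positive (80%, 56.3 to 94.3) and 8 of 20 Gzmk-negative cells (40%, 19.1 to 63.95), whose intervals overlap. Of the 19 cells with Tcf7, 3 were Gzmk-positive (15.8%, 3.38 to 39.6), as were 33 of the 53 cells without it (62.3%, 47.9 to 75.2). Gzmb, Ccl5 and Cxcr6 were detected together in 30 of 36 Gzmk-positive and 5 of 36 Gzmk-negative cells.

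Within the Gzmk-positive cells the level of Gzmk had only weak correlations with the selected genes that were examined. Over the 36 cells its Spearman correlation was 0.19 with Havcr2, 0.16 with Gzma, 0.13 with Eomes, 0.04 with Gzmb, 0.01 with Ccl5 and -0.16 with Lag3. Over all 72 cells, after removal of a linear dependence on log2 detected genes, the genes most like Gzmk were Gzmb (Spearman 0.72), Cd38 (0.60), Entpd1 (0.56), Tigit (0.50), the predicted gene Gm14295 (0.50) and Rpn1 (0.49), a subunit of the oligosaccharyltransferase. The most opposite were Tnfrsf26 (-0.48), Zfp36l1 (-0.45) and the myosin gene Myo1e (-0.45). These correlations describe cells of 1 plate, which share their library preparation, and they rest mainly on whether Gzmk was detected.

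Gzmk-positive cells were less frequent on the other plates. On the Il27ra knockout CD8 plate 7 of 77 kept cells were Gzmk-positive (9.09%, 3.73 to 17.8), against 36 of 72 on the wild-type CD8 plate (50%, 38 to 62). In those cells Gzmk had a median of 357.9 FPKM (232.5 to 2720) on the knockout plate and of 837 FPKM (58.2 to 2432) on the wild-type plate. The ranges overlap, but 1 cell set the upper end on the knockout plate, where the next highest had 650 FPKM. The CD8 population wells had 108.3 FPKM in knockout and 1043 FPKM in wild type. In these pooled wells, fewer Gzmk-positive cells and less Gzmk RNA per cell cannot be told apart. Among CD4 cells Gzmk was detected in 0 of 78 knockout cells, which allows up to 3.85%, and in 3 of 74 wild-type cells (4.05%, 0.84 to 11.4) at 385, 576 and 620 FPKM. The CD4 population wells had 98.3 FPKM in knockout and 54 FPKM in wild type. Genotype, source and plate are the same division here, so they cannot be told apart. Median detected genes were 2243 on the knockout and 2530 on the wild-type CD8 plate.

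The companions of Gzmk were only partly the same on the knockout CD8 plate. There, 734 of 8906 genes (8.24%) were higher by 2 log2 units in the 7 Gzmk-positive than in the 70 Gzmk-negative cells and 62 (0.696%) lower. Depth differed here too, with median detected genes of 2651 in Gzmk-positive and 2239 in Gzmk-negative knockout cells. No knockout cells were paired on depth, so these differences carry it and are set beside the wild-type differences in all cells. Of the 12 widest higher genes of the wild-type plate 5 were higher by 2 log2 units, and of the 12 lower ones 6 were lower. Gzmb was detected in 4 of 7 Gzmk-positive and 22 of 70 Gzmk-negative knockout cells (difference 3.73). Ccl5 was detected in 7 of 7 Gzmk-positive and 52 of 70 Gzmk-negative cells (3.45), and Prf1 in 5 of 7 Gzmk-positive and 13 of 70 Gzmk-negative cells (4.73). Tcf7 was detected in 1 of 7 Gzmk-positive and 46 of 70 Gzmk-negative cells (-4.18), the direction seen in wild type. Il7r was detected in 4 of 7 Gzmk-positive and 49 of 70 Gzmk-negative cells and differed by only -0.25. The median of the naive and stem-like list was 0.18 on the knockout plate, against -0.72 on the wild-type plate. Its sign changed, but on both plates it lay below the median over all genes. That median was 0.36 on the knockout and 0.48 on the wild-type plate. Cxcr6 was detected in 3 of 7 Gzmk-positive and 33 of 70 Gzmk-negative cells and differed by -0.86, against 5.71 in wild type, and Ctla4 by -1.38, against 4.14. Tox (-0.08, against 3.43 in wild type) and Tbx21 (-0.92, against 1.03) also had the other sign. At least 3 of the 4 receptors were detected in 3 of 7 Gzmk-positive knockout cells (42.9%, 9.90 to 81.6) and 12 of 70 Gzmk-negative ones (17.1%, 9.18 to 28). With 7 cells the intervals are wide, and whether the plates differ was not tested.

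**Figure D5:**
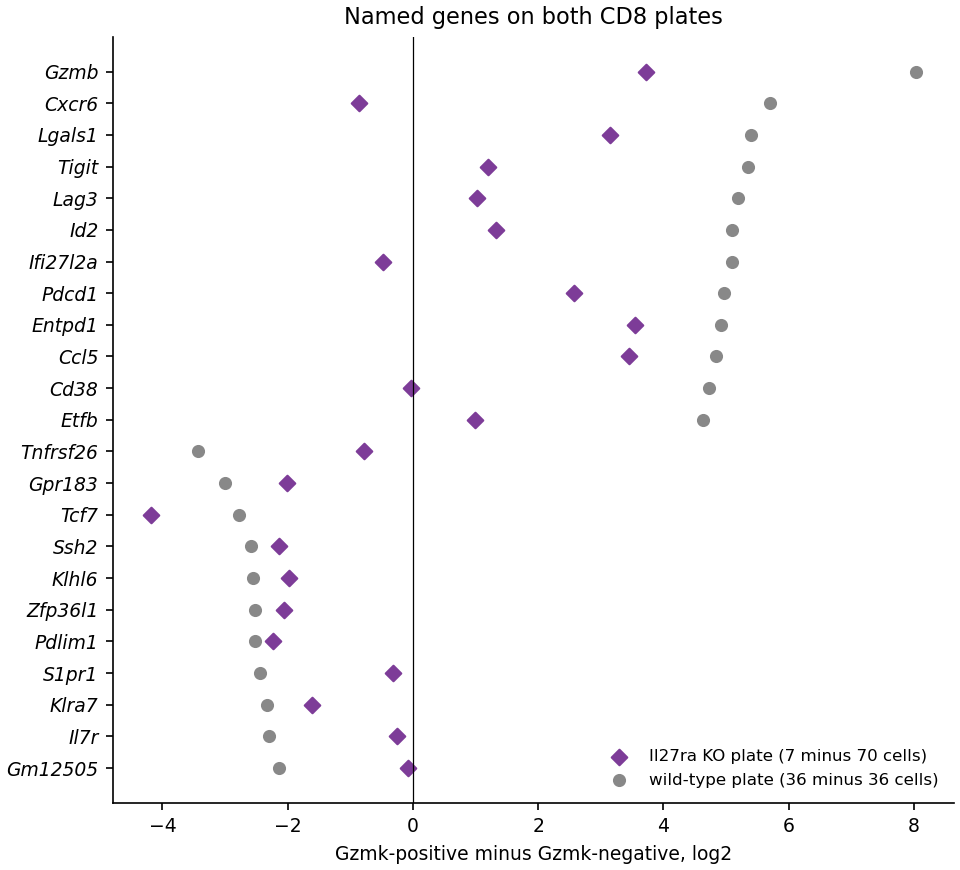
Difference (log2, Gzmk-positive minus Gzmk-negative, horizontal axis) of the 12 named higher and 11 of the 12 named lower genes (vertical axis) on the Il27ra knockout CD8 plate (diamonds, 7 and 70 cells) and the wild-type CD8 plate (circles, 36 and 36 cells). Gzmb, Ccl5, Entpd1 and Tcf7 lie past 2 log2 units on both plates, whereas Cxcr6, Ifi27l2a and Cd38 lie just below 0 on the knockout plate.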

How the data were processed

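The authors deposited 1 table of FPKM values with TMM normalization, per the labels' descriptions, for 23420 gene symbols and 4 plates of 96 wells. The submitters' processing notes list Bowtie, RSEM and the build mm10, with tool versions not given in the sources used here. Reads shared by near-identical genes are split by estimate in RSEM, which makes such genes uncertain. No counts were used. Steps between low values, with transcript lengths of GENCODE M21, gave an estimate of reads per cell, in which 61.6% of low values lay within 0.1 of a whole number (20% if spread evenly). That share, to which the choice of 411 genes also contributes, is too low for count tests, so the estimate served only to match depth.

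Cells with at least 1000 genes at 1 FPKM or more were kept. The other filters, scales and intervals stand in the results. Pairs were formed without reuse within 0.2 log2 of detected genes (20 pairs) or 0.3 log2 of estimated reads (24 pairs). The genes in the text are the 12 with the widest higher and the 12 with the widest lower difference past 2 log2 units that also differed the same way by 1 log2 unit or more in both paired sets, members of 30 gene lists, and the 6 most and 3 least similar to Gzmk. A few of these genes are not reported here. The members and lists were chosen with earlier results of these data known. Of 353 list entries 3 were found under an older symbol (4632428N05Rik for Vsir, Emr1 for Adgre1, Beta-s for Hbb-bs) and 2 were not matched. No-cell wells had 6 to 26 detected genes and population wells 9918 to 10848. Doublets were not screened in these plate wells, where 3 Gzmk-positive and 3 Gzmk-negative cells had 5000 or more detected genes. Analyses used Python 3.11.15, numpy 2.4.6, pandas 2.3.3, scipy 1.17.1 and matplotlib 3.10.9. The depth estimate and the comparison were also run on simulated data, with results that are not reported here. Promoter sequences came from RefSeq.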

Additional observations from a re-analysis of the deposited data

Results flagged for a closer look

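In the Il27ra knockout CD8 plate the highest of the 7 Gzmk-positive cells had 2720 FPKM of Gzmk, far from the next at 650 FPKM. A highest value set apart in this way can also arise by chance. The 7 cells were chosen by their Gzmk value, so this is a description and was not tested.

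Of the 12 genes named as higher and the 12 named as lower in Gzmk-positive cells, 3 had differences of opposite sign on the CD8 plates. Cxcr6 differed by -0.859 log2 units on the knockout plate and by 5.71 on the wild-type plate. Ifi27l2a differed by -0.475 on the knockout plate and by 5.09 on the wild-type plate. Cd38 differed by -0.0314 on the knockout plate and by 4.73 on the wild-type plate. The difference between the plates was not tested, and the knockout values rest on 7 Gzmk-positive cells, of which 3, 2 and 2 had the gene.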

How the results depend on the processing

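No paired analysis was possible because the comparison holds cells of 1 plate, whose numbers name wells. Of the genes tested, 9.39% were higher by 2 log2 units and 0.174% lower. The share that was higher became 19.9% with a pseudocount of 0.1 FPKM, 3.82% in cells with at least 2000 detected genes, 15.8% with at least 500, 2.21% and 2.45% in the cells paired on detected genes and on reads, and 1.44% with a term for detected genes. The share that was lower became 0.429%, 0.552%, 0.0472%, 0.879%, 1.06% and 0.603% in the same order, and 3.25% with arithmetic means and 0.696% on the knockout plate. Without cells that had a melanoma or myeloid marker other than Tyr, 18% were higher and 0.309% lower. That setting was chosen after seeing the data, because the planned one with Tyr left no cell. Rescaling each cell to the same total (6.86% higher, 0.174% lower) and leaving out cells of 5000 or more detected genes (12.2% and 0.225%) were also added then. The cause of these shifts was not tested. The share of Gzmk-positive cells was 45% with at least 500 and 58.6% with at least 2000 detected genes. The named genes were chosen as the widest in these cells and for the same direction in both paired sets. The settings on the wild-type plate reuse those cells, so the counts of named genes there were largely fixed by the choice. All 12 genes named as higher were past 2 log2 units in every setting except arithmetic means (5 of 12) and the knockout plate (5 of 12). Of the 12 named as lower, 4 were so in cells of at least 500 genes, 6 on the knockout plate and 10 to 12 otherwise, with 1 of them not measured under the 25% gene filter. Of these named genes Cxcr6 (-0.86), Ifi27l2a (-0.48) and Cd38 (-0.0314) changed sign on the knockout plate. Signs are read against 0 here, while the median over all genes was 0.36 on the knockout plate. Among lists with at least 3 measured genes, the medians that changed sign there were tissue residence (-0.76), GIMAP (-0.122), interferon-stimulated (-0.79), naive and stem-like (0.18) and melanoma markers (-0.26). In cells paired on detected genes they were MHC class I (-0.0234), proliferation (-0.11), cytokine receptors (-0.0062), killer lectin-like receptors (-0.36) and immediate early genes (-0.58). In cells paired on reads they were cytokine receptors (-0.20), killer lectin-like receptors (-0.85), immediate early genes (-0.43), housekeeping genes (-0.20) and myeloid markers (-0.67). Under other settings the sign also changed for chemokines and cytokines, killer lectin-like receptors, proliferation, immediate early, interferon-stimulated, cytokine receptor, melanoma and myeloid lists.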

Other observations

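Tyr, an enzyme of pigment synthesis, was at 1 FPKM or more in 36 of 36 Gzmk-positive and 36 of 36 Gzmk-negative cells. Its value had a median of 8.42 FPKM (2.92 to 371.5) in Gzmk-positive and 10.5 FPKM (2.26 to 76.3) in Gzmk-negative cells. It was listed at 0 in all 4 no-cell wells and was at 12.9 FPKM in the wild-type CD8 population well. Dct, another pigment enzyme, was detected in 6 Gzmk-positive and 5 Gzmk-negative cells.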
